A study of Homo sapiens with 6 samples.

Results

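The genes named ZNF1 to ZNF299 are the low-numbered block of the human zinc finger genes that carry a plain ZNF number. A gene was taken as a member when its symbol was ZNF followed by a whole number no higher than that of ZNF299 and nothing else, and 140 of the 60691 genes in the table met this rule. They were read in SW1353, an established human chondrosarcoma line, so all results come from 1 line. Cells of both groups stood in 3% oxygen for the 48 h from seeding and carried a short hairpin RNA delivered by transduction: in the 3 shfirefly libraries against firefly luciferase, which human cells lack, and in the 3 shSIRT1 libraries against SIRT1, an NAD+-dependent deacetylase. The comparison belongs to a study of SIRT1 and of HIF-2α, the hypoxia-inducible factor encoded by EPAS1, in this tumour. The labels conflict on the hairpin, since 1 protocol field names EPAS1 where the titles and the design text name SIRT1. SIRT1 was at 26.0, 24.8 and 24.0 CPM (counts scaled to a common library size, after TMM normalization) in shfirefly and at 12.9, 13.2 and 14.7 CPM in shSIRT1, a log2 fold change of -0.88 (SE 0.07, edgeR quasi-likelihood test, adjusted p = 2.3e-09). EPAS1 was lower too, at 477, 483 and 409 CPM against 245, 226 and 227 CPM (log2 fold change -0.97, SE 0.06, edgeR adjusted p = 5.8e-07).

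Most ZNF proteins bind DNA through a row of C2H2 zinc fingers, in which a pair of cysteines and a pair of histidines hold a zinc ion and each finger reads a few bases. Many also carry a KRAB domain at their amino end, which recruits the corepressor TRIM28 and, through it, the histone methyltransferase SETDB1 and the heterochromatin proteins of the HP1 family. KRAB zinc finger genes arose largely by tandem duplication, lie in clusters, and are best known for silencing retroelements. Neighbouring genes of a cluster can be near-identical, so that short reads may be shared between them; how the authors' counting treated such reads is not given in the sources used here.

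The total counts per library ran from 24993064 to 32044191, so that 0 counts leave room for a level of 0.0968 to 0.115 CPM, depending on the library (3 counts; counting error alone). Cartilage markers were mixed: of 10, SOX9 and MATN3 were called higher and ACAN, HAPLN1 and PRG4 lower. The median log2 fold change of those tested was -0.91. SOX9 was at 43.7 CPM in shfirefly and 53.1 CPM in shSIRT1, HAPLN1 at 8.08 and 4.28 CPM, and ACAN at 1.51 and 0.679 CPM. COL9A1 had no counts, and COL2A1, COL11A1, SOX5 and SOX6 were too low to test. Summed markers of endothelial, leukocyte and red blood cells reached at most 2.16, 0.750 and 0.222 CPM in any library. Epithelial markers summed to 308 to 319 CPM in shfirefly and 356 to 373 CPM in shSIRT1, nearly all from the keratins KRT8 and KRT18, of which KRT18 was called higher. Of 5 mesenchymal markers 4 were lower and THY1 was not tested, with a median log2 fold change of -0.47. The neural marker MAP2 was lower at 9.16 CPM in shfirefly and 5.72 CPM in shSIRT1. SNAP25, also neural, did not pass at 5.61 and 5.48 CPM, and GFAP was not tested. The muscle marker MYH2 was lower at 8.83 and 6.61 CPM, and ACTA1 was not tested. The part of these markers in the results was not tested. Of the 140 members, 138 had at least 1 read and 133 passed the filter on low counts. ZNF80 and ZNF154 had no counts in any library. ZNF99, ZNF157, ZNF177, ZNF233 and ZNF296 had at most 13 counts in a library and were not tested.

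Most promoters of members in the chromosome 7 run and the first chromosome 19 run share a short sequence, whether or not the member was called. Both runs held no member called lower. The sequence is shown here because the members are later described by its presence. The 9 letters CCAATCAGG, which contain the CCAAT core known as the CCAAT box, were found by comparing the promoters of those runs, after their values were seen. RefSeq gene starts on GRCh38.p14 gave a window for 118 of the 140 members, and the 250 bases before the start were searched on both strands. Each line gives 30 bases around the motif on the strand of the gene, with the motif in capitals; ZNF92 has 2 copies.
ZNF92 chr7:65373757-65373786 (+): ttaaacgttatCCAATCAGGaacgctgggc
ZNF92 chr7:65373786-65373815 (+): ctgggaaccatCCAATCAGGcacgcaactg
ZNF100 chr19:21767612-21767641 (-): ctggaaaccgtCCAATCAGGcatgcagctg
ZNF90 chr19:20077907-20077936 (+): ttaagcattatCCAATCAGGgacgctgggt
ZNF254 chr19:24087124-24087153 (+): ctgggaactgtCCAATCAGGcacacagctg
ZNF91 chr19:23395511-23395540 (-): ctgggaactgtCCAATCAGGcacaaagctg
ZNF141 chr4:337750-337779 (+): gtgaaaactgcCCAATCAGGcacgcagcca
ZNF195 chr11:3379202-3379231 (-): gcggggactgtCCAATCAGGcacatgtctg
ZNF14 chr19:19733147-19733176 (-): attggatctgtCCAATCAGGacctcagctg

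All 34 copies in the members lay on the strand of the gene, between 51 and 232 bases before the RefSeq start, with a median of 72 bases. GENCODE 29 starts some of these genes farther upstream, so that some copies reach into its span of the gene. Examples are the copy of ZNF100 and the nearer copies of ZNF92 and ZNF107. Over all RefSeq windows the motif stood on the strand of the gene alone in 224, on the other strand alone in 152 and on both strands in 6. In 11 of the 23 members with the motif there were 2 copies, and in 8 of these the copies started 28 to 29 bases apart. The first sequences that follow show such a pair in ZNF138, in a run on chromosome 7, and in ZNF267, on chromosome 16 and in no run. The third is ZNF175 on chromosome 19, which fell and has no copy. Each is the part of the 250 bases that lies outside the GENCODE 29 span of the gene.
ZNF138 chr7:64794178-64794387 (+): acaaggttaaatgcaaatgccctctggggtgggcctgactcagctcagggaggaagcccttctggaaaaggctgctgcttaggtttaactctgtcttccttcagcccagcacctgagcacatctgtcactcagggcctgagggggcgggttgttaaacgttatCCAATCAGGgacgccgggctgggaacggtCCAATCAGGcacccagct
ZNF267 chr16:31873557-31873757 (+): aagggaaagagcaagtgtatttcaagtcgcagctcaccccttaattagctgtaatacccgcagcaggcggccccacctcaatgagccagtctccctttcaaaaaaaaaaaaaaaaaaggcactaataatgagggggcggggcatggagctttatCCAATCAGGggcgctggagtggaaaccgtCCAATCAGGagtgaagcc
ZNF175 chr19:51571033-51571282 (+): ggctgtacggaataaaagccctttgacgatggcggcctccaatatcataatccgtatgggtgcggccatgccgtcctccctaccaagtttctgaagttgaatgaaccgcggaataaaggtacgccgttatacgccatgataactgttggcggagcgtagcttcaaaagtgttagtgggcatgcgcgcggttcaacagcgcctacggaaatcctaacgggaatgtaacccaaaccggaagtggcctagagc

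As a whole the members did not move one way. By edgeR's quasi-likelihood test with Benjamini-Hochberg adjustment over the 16591 genes tested, 36 of the 133 tested members were higher in shSIRT1, 33 were lower and 64 did not pass; 20 were lower without shSIRT1 replicate 1. Over all genes tested 26.8% were called higher and 26.0% lower, or 52.8% in either direction, so the members' 27.1%, 24.8% and 51.9% lie near the background. The members' median log2 fold change was 0.06, beside 0.00 over all genes tested, and 74 of the 133 members had a positive value. This balance depends on the scaling: with library totals alone, which shift the median of all genes to 0.13, the members' median became 0.18 and the split 53 higher and 12 lower. The sizes were uneven. The members ran from -0.98 to 1.69, and 7 called members rose at least 2-fold while none fell that far; over all genes 2.19% were called and at least 2-fold higher and 4.26% at least 2-fold lower. In 78 members the groups had separate CPM ranges, with shSIRT1 above in 40 and below in 38, beside 59.7%, 30.4% and 29.4% of all genes tested.

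Direction varied with position in the genome. Runs of at least 5 members on 1 chromosome, with gaps under 1 Mb between neighbours, numbered 7 and held 63 of the tested members. The run on chromosome 7 (chr7:64666083-65401135, GENCODE 29 spans on GRCh38) and the first of the runs on chromosome 19 (chr19:19668796-24129961) held only members that were higher or did not pass. The shares of all genes tested were 26.8% called higher and 26.0% called lower. In the chromosome 7 run 3 of 5 members were higher, with a median log2 fold change of 0.92. In the first chromosome 19 run 9 of 15 tested members were higher, with a median of 0.71. Over the alternative scalings, filters, tests and left-out libraries, these counts ran from 2 to 5 and from 8 to 10, no member of either run was called lower, and the medians stayed between 0.81 and 1.04 and between 0.63 and 0.92. The 2 calls in the chromosome 7 run came without shfirefly replicate 1, without shfirefly replicate 2 and without shSIRT1 replicate 1, and the 5 without shSIRT1 replicate 2 and with the replicate number as a block.

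The other runs went the opposite way or neither way. In the run on chromosome 8 (chr8:144720907-144950888) ZNF34, ZNF251, ZNF16 and ZNF250 were lower and ZNF7 did not pass, with a median log2 fold change of -0.44. In the second chromosome 19 run (chr19:43827292-45076588) 8 of 18 tested members were lower and ZNF112 alone was higher, with a median of -0.23. The calls in the second run depended on the scaling and on single libraries: with library totals alone 1 member was lower and 3 were higher, DESeq2 called 2 lower and 1 higher, and 3 were lower without shfirefly replicate 1, 4 without shfirefly replicate 2 or shSIRT1 replicate 1, and 5 without shSIRT1 replicate 2. Its median stayed between -0.28 and -0.11 over all these alternatives. In the chromosome 8 run the count of lower members was 1 with library totals alone, and 2 by DESeq2, without shfirefly replicate 1 and without shSIRT1 replicate 1. In the third chromosome 19 run (chr19:56595264-58440222) ZNF132, ZNF17, ZNF274 and ZNF264 were lower and the other 6 tested members did not pass, with a median of -0.11 that became 0.01 with library totals alone. The run on chromosome 12 had ZNF26 lower and 4 members that did not pass, and that on chromosome 16 had ZNF200 and ZNF174 higher and ZNF205 and ZNF213 lower. Of the 70 tested members in no run, 21 were higher and 14 lower, with a median of 0.11. The shares over all genes tested were 26.8% higher and 26.0% lower.

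**Figure D1:**
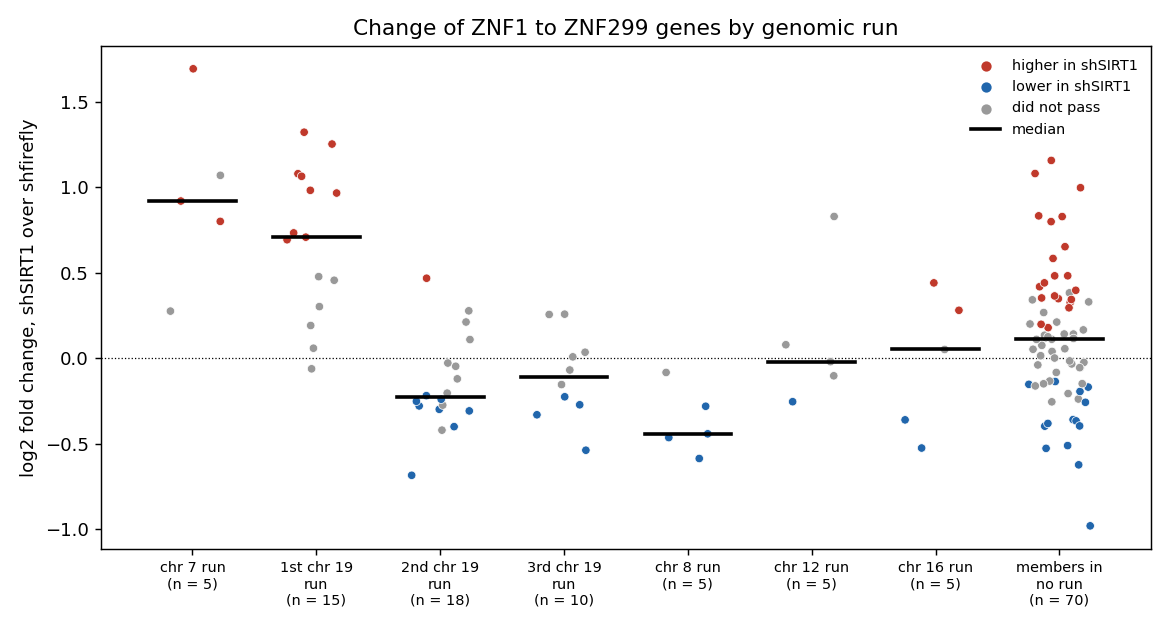
Log2 fold change of each of the 133 tested members (y axis) by genomic run (x axis), with red points for members higher in shSIRT1, blue for lower, grey for those that did not pass, and a black bar at the median of each run. The chromosome 7 run and the first chromosome 19 run have medians of 0.92 and 0.71 and no blue point, while the chromosome 8 run has a median of -0.44 and no red point.

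Genes that are not members but lie inside the runs were counted too, beginning with the first chromosome 19 run. Of 20 tested ZNF genes with numbers above that of ZNF299 inside it, 15 were higher, none was lower and 5 did not pass by edgeR's quasi-likelihood test, with a median log2 fold change of 0.73 and a range from 0.16 (ZNF506) to 1.60 (ZNF728). Of 19 non-coding genes and pseudogenes there, 6 were higher, none lower and 13 did not pass, with a median of 0.24 and a range from -0.79 to 1.42, beside 26.8% of all genes called higher, and no other protein-coding gene in the interval was tested. In the third chromosome 19 run 2 of 29 such ZNF genes were higher and 2 lower. The single tested ZNF neighbours in the chromosome 8 run (ZNF517, log2 fold change -0.55) and in the second chromosome 19 run (ZNF404, -0.51) were lower. Among the 11 other protein-coding genes of the second run, 2 were higher and 5 lower. In the chromosome 7 run the single other protein-coding gene tested, the retroviral envelope gene ERV3-1, had a log2 fold change of 0.09 and did not pass.

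Members with the CCAATCAGG motif were mostly higher in shSIRT1, and those without it were split. The motif stood in 23 of the 118 members with a window (19.5%), counted by gene. It stood in 1.09% of all 35116 RefSeq windows, which can be several per gene. Counted by gene, 1.47% of tested genes with a window outside the ZNF genes carried it. Of these 23 members 15 were higher, none was lower and 8 did not pass, with a median log2 fold change of 0.71. Of the 92 tested members whose window lacks it, 16 were higher, 27 lower and 49 did not pass, with a median of -0.03. Since the motif was chosen from promoters of runs whose called members all rose, these counts are a description and no test was made. Over the alternatives 11 to 18 of the 23 were higher, none lower, and the median stayed between 0.58 and 0.88; the members without the motif had 12 to 30 higher and 11 to 30 lower. The 11 lower came with library totals alone, and 15 were lower by DESeq2 and 17 without shSIRT1 replicate 1.

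Most carriers come from the runs that supplied the motif. In the chromosome 7 run and the first chromosome 19 run 15 of 17 members with a window carried it. Of these 15, 10 were higher and 5 did not pass. The exceptions were ZNF117, which did not pass, and ZNF257, which rose. Elsewhere 8 of 101 carried it, and of these ZNF124, ZNF136, ZNF141, ZNF195 and ZNF267 were higher while ZNF57, ZNF77 and ZNF214 did not pass. Among the ZNF genes with higher numbers, 33 of 263 with a window carried the motif; 20 were higher, 2 lower and 11 did not pass, with a median of 0.64, while the 230 without it had 51 higher and 38 lower and a median of 0.04. Of these 33, 14 lie inside the first chromosome 19 run, with 12 higher and none lower, and 19 lie outside both runs, with 8 higher, 2 lower and a median of 0.45. Outside the ZNF genes, 158 tested genes carried it and 57 were higher and 36 lower, with a median of 0.06. The 10605 tested genes outside the ZNF genes whose window lacks it had 3320 higher and 2955 lower, with a median of 0.02. The shorter CCAAT, on either strand, stood in 56.8% of members with a window, counted by gene, and in 32% of all windows, counted by window. The 43 tested members with CCAAT but without the 9 letters had 8 higher and 11 lower.

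**Figure D2:**
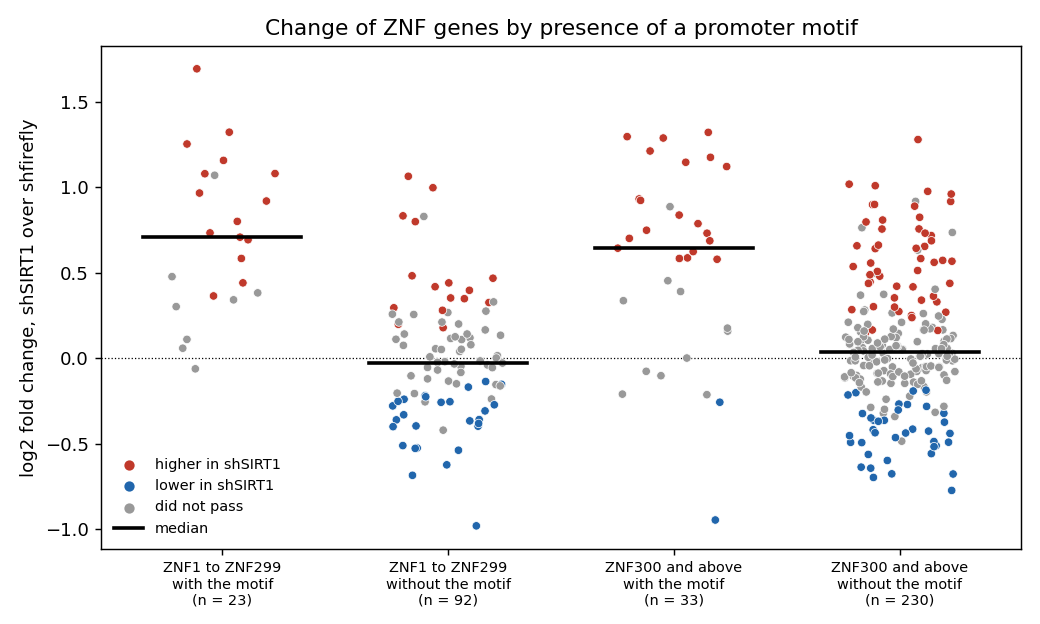
Log2 fold change (y axis) of tested ZNF genes with a RefSeq promoter window, split by whether CCAATCAGG stands in the 250 bases before the start; colours mark the call and black bars the medians. The members with the motif have a median of 0.71 and no blue point, those without it a median of -0.03, and the higher-numbered ZNF genes have medians of 0.64 and 0.04.

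The windows also differ in their wider sequence. By global alignment with the 250 bases of ZNF92, members of the chromosome 7 run and the first chromosome 19 run shared a median of 82.0% of bases (range 56.4% to 86.0%, 16 members). Carriers elsewhere shared a median of 61.0%, and members elsewhere without the motif 56.0%. Inside these runs ZNF257, without the motif, shared 86.0% and was higher. ZNF14 and ZNF101, with it, shared 61.2% and 60.8% and did not pass, nor did ZNF117, without it, at 56.4%. The carriers ZNF66, ZNF91 and ZNF107 shared 82.0% to 84.8% and did not pass either. The parts of the motif and of the wider sequence in the changes were not tested. All 23 carriers had a KRAB match in their protein, as did 46 of the 92 tested members without the motif. The transcripts of carriers had a median GC content of 43.7%, against 47.0%, and a median level of 6.67 CPM, against 11.98 CPM. Replicate 3 was the highest library of both groups in 14 of the 23 carriers and in 31 of the 92 others. The 23 carriers had 16 higher and none lower with an offset for GC content and length, and 18 higher and none lower without both libraries numbered 3.

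ZNF92 on chromosome 7 (chr7:65373799-65401135) had the largest rise of the members. It was at 2.80, 2.77 and 5.36 CPM in shfirefly and at 11.4, 8.19 and 16.3 CPM in shSIRT1, and the groups did not overlap. The log2 fold change was 1.69 (SE 0.42, edgeR adjusted p = 0.027). Replicate 3 was the highest library of each group, and the call was lost without shSIRT1 replicate 1, without shfirefly replicate 1 and without shfirefly replicate 2, with edgeR adjusted p up to 0.099.

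The next rises were steadier. ZNF100, on chromosome 19 (chr19:21722766-21767628), was at 4.14, 3.14 and 4.32 CPM in shfirefly and 9.06, 7.76 and 12.5 CPM in shSIRT1 (2.50-fold higher, edgeR adjusted p = 8.2e-05). ZNF90 (chr19:20077994-20127076) was at 1.89, 1.74 and 2.90 CPM against 4.43, 4.86 and 6.46 CPM (2.38-fold higher, edgeR adjusted p = 2.8e-05). The lowest shSIRT1 library stood above the highest shfirefly library for each of them, and neither call was lost when any single library was left out. ZNF254 (2.11-fold, edgeR adjusted p = 0.00038) and ZNF257 (2.09-fold, edgeR adjusted p = 0.0060) lie in the same run and kept their calls too. ZNF253, also there, had the smallest spread of the 8 largest rises. It was at 2.77, 2.66 and 2.84 CPM in shfirefly and 5.22, 5.22 and 5.96 CPM in shSIRT1, a log2 fold change of 0.98 (SE 0.14, edgeR adjusted p = 3.7e-06).

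A pair of the 8 largest rises lie in no run. ZNF267 on chromosome 16 (chr16:31873758-31917357) was at 3.39, 4.11 and 5.13 CPM in shfirefly and 8.77, 7.57 and 11.997 CPM in shSIRT1 (2.23-fold higher, edgeR adjusted p = 0.00072). ZNF141 on chromosome 4 (chr4:337814-384864) was at 5.28, 4.44 and 7.03 CPM against 10.2, 9.17 and 16.5 CPM (2.11-fold higher, edgeR adjusted p = 0.043). The groups did not overlap for either gene, but the ZNF141 call was lost without shSIRT1 replicate 1 and without each of the shfirefly libraries, with edgeR adjusted p up to 0.15.

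The largest falls were smaller in size than the largest rises. ZNF185 on the X chromosome (chrX:152914442-152973480), whose product is a LIM-domain protein of the actin cytoskeleton and not a DNA-binding factor, had the largest. It was at 2.77, 2.59 and 1.84 CPM in shfirefly and 1.60, 0.848 and 1.18 CPM in shSIRT1, a log2 fold change of -0.98 (SE 0.24, edgeR adjusted p = 0.0017). It was the 1 member with a coding sequence and no C2H2 match. ZNF175 on chromosome 19 (chr19:51571298-51592508), a KRAB zinc finger gene, was at 33.8, 31.0 and 31.2 CPM against 20.8, 20.2 and 21.4 CPM. Its replicates were close within each group and the log2 fold change was -0.62 (SE 0.06, edgeR adjusted p = 3.6e-08). ZNF277 on chromosome 7 (chr7:112206588-112343096) was at 24.8, 24.1 and 24.9 CPM against 17.7, 16.8 and 16.6 CPM (log2 fold change -0.53, SE 0.07, edgeR adjusted p = 9.0e-07).

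The other large falls came from lower counts or from the runs. ZNF205 on chromosome 16 was at 13.1, 12.8 and 14.3 CPM in shfirefly and 9.26, 9.66 and 9.02 CPM in shSIRT1 (log2 fold change -0.53, edgeR adjusted p = 3.4e-05). ZNF284, in the second chromosome 19 run, was at 2.83, 3.40 and 3.48 CPM against 1.92, 2.09 and 2.02 CPM (log2 fold change -0.69, edgeR adjusted p = 0.0018). ZNF132, in the third chromosome 19 run, had a log2 fold change of -0.54 (edgeR adjusted p = 0.0048). ZNF34 in the chromosome 8 run (log2 fold change -0.59) and ZNF169 on chromosome 9 (log2 fold change -0.51) lay at 1.53 to 4.77 CPM in all libraries. Their groups did not overlap, but both calls were lost without shSIRT1 replicate 1 and without shfirefly replicate 3, with edgeR adjusted p up to 0.20 for ZNF34 and 0.094 for ZNF169.

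**Figure D3:**
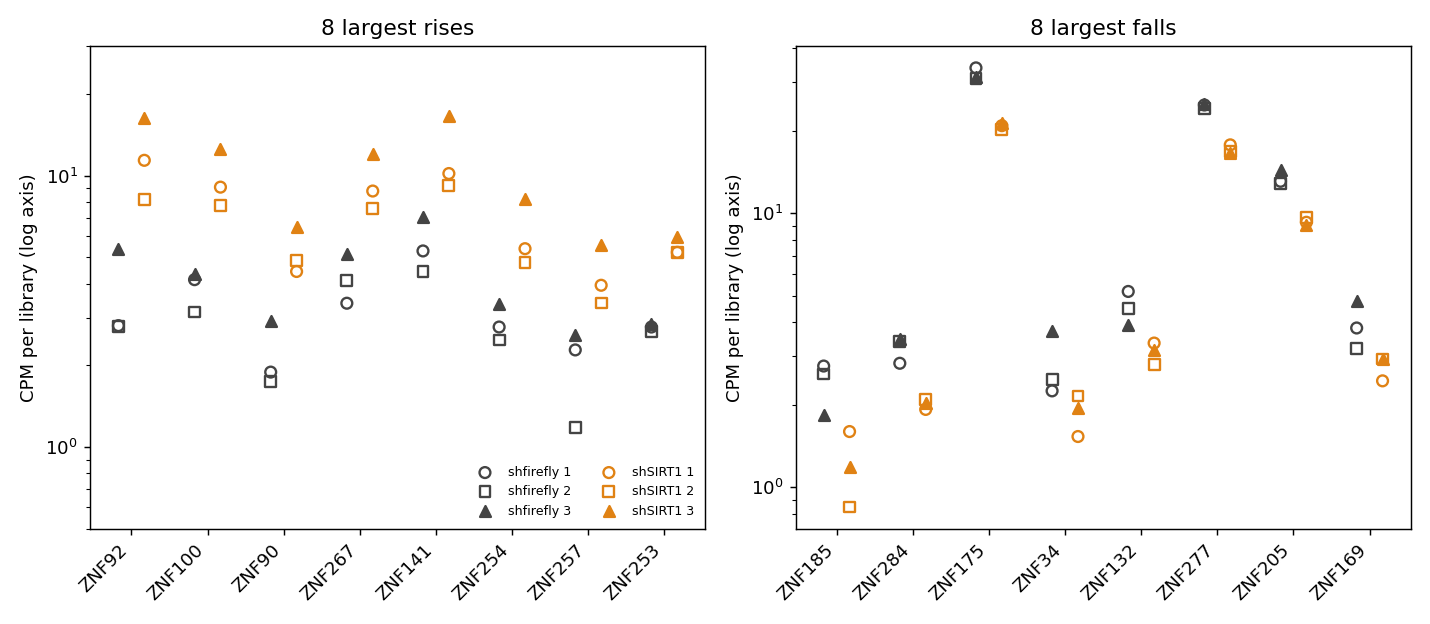
CPM in each library on a log axis for the 8 members with the largest rises (left) and the 8 with the largest falls (right) among called members whose groups do not overlap; grey points are shfirefly, orange points shSIRT1, circles replicate 1, squares replicate 2 and filled triangles replicate 3. Among the rises replicate 3 is the highest library of both groups for each gene, while among the falls, such as ZNF175 at 31.0 to 33.8 against 20.2 to 21.4 CPM, it holds no fixed place.

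Members were expressed at low levels. The median mean level of the tested members was 8.33 CPM, beside 14.7 CPM over all genes tested, and per kb of merged exons it was 1.84 beside 3.23 CPM per kb. Of the 133, 7 had a mean under 1 CPM, 30 from 1 to 5, 68 from 5 to 20 and 28 of 20 CPM or more. The 10 highest held 36.9% of the summed CPM of the members. All members together took 0.189% to 0.210% of the counts of a shfirefly library and 0.224% to 0.241% of a shSIRT1 library, and these ranges did not overlap. On the TMM scale the sums were 1999 to 2168 CPM and 2163 to 2305 CPM, which overlap.

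The highest members per kb did not share a direction. ZNF114, a KRAB gene on chromosome 19 (chr19:48270102-48287608), led with 34.0 CPM per kb; it was at 87.3, 86.4 and 95.3 CPM in shfirefly and 110, 114 and 117 CPM in shSIRT1 (log2 fold change 0.34, edgeR adjusted p = 1.4e-06). ZNF146, which consists almost wholly of fingers, followed with 19.3 CPM per kb and did not pass (log2 fold change 0.14, edgeR adjusted p = 0.27). ZNF22 had 17.2 CPM per kb and a log2 fold change of -0.17 (edgeR adjusted p = 0.0086), a call lost without shfirefly replicate 2 (adjusted p = 0.050) and with library totals alone. ZNF282, at 63.4, 63.6 and 64.6 CPM against 49.0, 50.1 and 47.8 CPM, had 14.7 CPM per kb and fell by 0.38 on the log2 scale (edgeR adjusted p = 4.7e-07). ZNF217, an oncogene amplified in breast cancer, had 11.8 CPM per kb and the log2 fold change nearest 0. It was at 71.8, 73.2 and 74.2 CPM in shfirefly and 72.2, 74.2 and 72.9 CPM in shSIRT1. ZNF184 and ZNF71 were the next nearest to 0, each at 0.01.

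**Figure D4:**
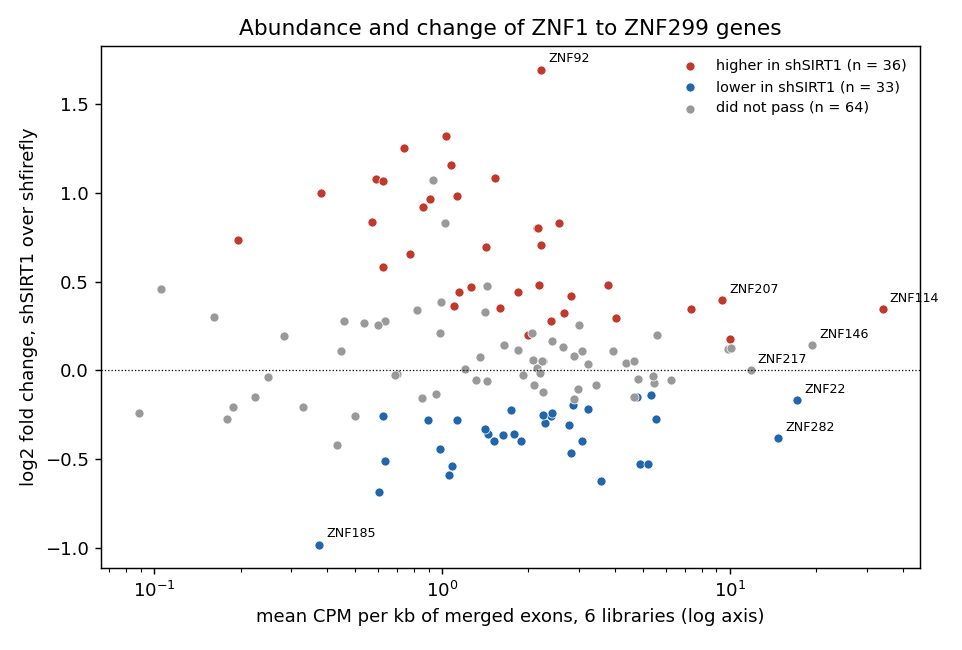
Log2 fold change (y axis) against the mean CPM per kb of merged exons over the 6 libraries (x axis, log scale) for the 133 tested members, coloured by call. ZNF114 stands at 34.0 CPM per kb, and the log2 fold changes above 1 lie among members below 3 CPM per kb.

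Members with a known role fell on both sides. ZNF91 and ZNF93, KRAB repressors of SVA and LINE retrotransposons, lie in the first chromosome 19 run. ZNF93 was at 7.95, 8.10 and 11.9 CPM in shfirefly and 14.1, 14.9 and 16.9 CPM in shSIRT1 (1.63-fold higher, edgeR adjusted p = 0.0024). ZNF91 was at 11.4, 11.2 and 14.6 CPM against 16.5, 12.3 and 23.5 CPM. Its groups overlapped and it did not pass (log2 fold change 0.48, SE 0.29, edgeR adjusted p = 0.25), although it passed without both libraries numbered 3 (edgeR adjusted p = 0.024), without shSIRT1 replicate 2 (0.019) and without robust estimation (0.035). ZNF274, which brings SETDB1 to the ends of ZNF genes themselves, fell from 53.3, 50.3 and 48.5 CPM to 40.7, 43.4 and 41.7 CPM (log2 fold change -0.27, edgeR adjusted p = 0.00016).

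Members without a KRAB match in the first 150 residues, which does not exclude a KRAB domain farther on, were among the more abundant of these. ZNF207, a mitotic protein that binds BUB3, had the highest mean of all members, 149 CPM. It was at 126, 119 and 140 CPM in shfirefly and 165, 170 and 172 CPM in shSIRT1 (log2 fold change 0.40, edgeR adjusted p = 3.0e-06). ZNF24, a SCAN-domain repressor, rose by 0.35 (edgeR adjusted p = 3.9e-06) and ZNF148, a regulator that binds GC-rich promoters, by 0.29 on the log2 scale (edgeR adjusted p = 0.00014). The promoter activator ZNF143, the stem cell factor ZNF281, the lipid gene repressor ZNF202 and ZNF263 did not pass, with log2 fold changes from 0.04 to 0.13. ZNF10, whose KRAB domain is widely used in engineered repressors, did not pass either (log2 fold change -0.02).

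Both directions were found among members with and without a KRAB match, at shares near the background. Over all genes tested 26.8% were called higher and 26.0% lower. A KRAB match, by either of the patterns searched in the first 150 residues, was found in 87 members, of which 83 were tested. Of these, 23 were higher (27.7%) and 21 lower (25.3%), with a median log2 fold change of 0.01. Of the 48 tested members with C2H2 matches and no KRAB match, 13 were higher (27.1%) and 11 lower (22.9%), with a median of 0.09. A KRAB domain beyond the first 150 residues would not be found, so this group may hold KRAB genes. With the narrower of the patterns alone, 20 of 68 tested members with a match were higher and 18 lower. The remaining tested members were ZNF185 and the pseudogene ZNF56. The KRAB members had a lower median level, 6.83 CPM against 14.7 CPM, and a larger median within-group SD of log2 CPM, 0.15 against 0.11. By number of finger matches, 9 of 19 members with 1 to 5 were higher and 5 lower, 6 and 6 of 32 with 6 to 10, 15 and 12 of 52 with 11 to 15, and 6 and 9 of 28 with 16 or more. On chromosome 19, which holds 65 of the 140 members, 16 of 60 tested were higher (26.7%) and 14 lower (23.3%), also near the background.

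Replicate 3 was often the highest library of its group. The median pooled within-group SD of log2 CPM was 0.12 over the members and 0.10 over all genes tested. Replicate 3 was the highest library of both groups in 51 of the 133 members (38.3%), beside 14.7% of all genes tested, 22.3% of the higher-numbered ZNF genes and 30.8% of ZBTB genes. It was the lowest of both in 10 members (7.5%), beside 15.5% of all genes. On the log2 scale replicate 3 exceeded the mean of the others by a median of 0.09 in shfirefly and 0.07 in shSIRT1, against 0.00 and -0.01 over all genes. The shift of replicate 3 in shfirefly and that in shSIRT1 correlated across the 133 members with r = 0.54, and with r = 0.14 across all genes tested; genes are not independent replicates, and each shift comes from 1 library.

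**Figure D5:**
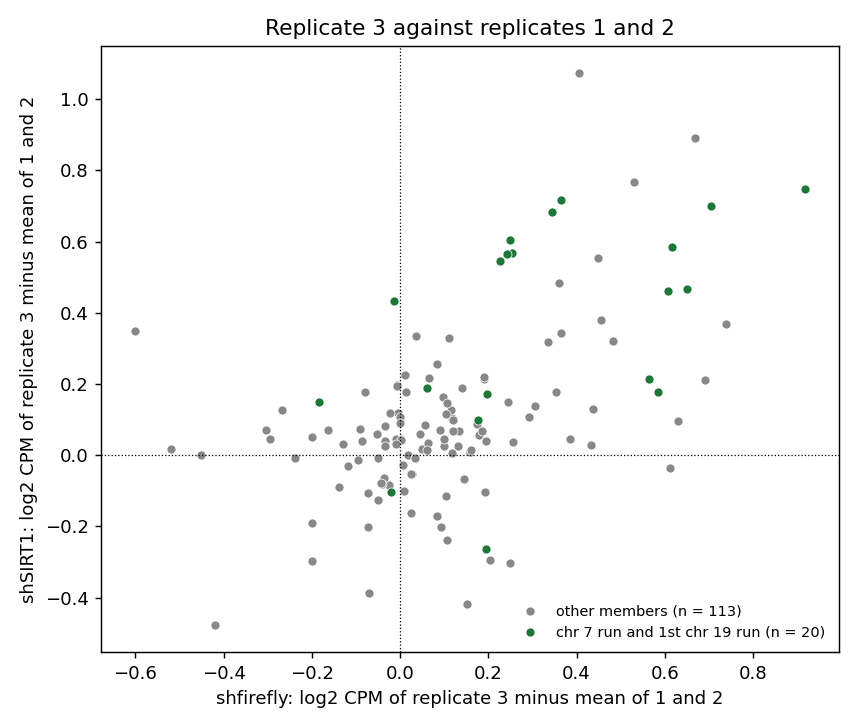
For each of the 133 tested members, log2 CPM of replicate 3 minus the mean of replicates 1 and 2 in shfirefly (x axis) and in shSIRT1 (y axis); green points are members of the chromosome 7 run and the first chromosome 19 run, grey points all others. The points lean to the upper right (r = 0.54), where replicate 3 lies above the mean of replicates 1 and 2 in both groups.

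This pattern was uneven over the runs. Replicate 3 was highest in both groups in all 5 members of the chromosome 7 run and in 10 of the 15 tested members of the first chromosome 19 run, but in 2 of 18 in the second and in none of 5 in the chromosome 8 run. The 5 members with the largest spread at a mean of at least 1 CPM were ZNF292, ZNF92, ZNF257, ZNF107 and ZNF141. ZNF292, a large nuclear protein without a KRAB match, was at 13.9, 15.5 and 19.5 CPM in shfirefly and 19.1, 11.5 and 31.3 CPM in shSIRT1 and did not pass (edgeR adjusted p = 0.58). ZNF107, in the chromosome 7 run, was at 4.01, 3.03 and 5.74 CPM against 8.44, 6.59 and 12.2 CPM. Its groups did not overlap, yet it did not pass (log2 fold change 1.07, SE 0.34, edgeR adjusted p = 0.054). Over the alternatives without a block its adjusted p ran from 9.4e-06 to 0.17, and it passed by DESeq2, without robust estimation, with the offset for GC content and length, with library totals alone, with either other filter, without both libraries numbered 3, and without shfirefly replicate 3, shSIRT1 replicate 2 or shSIRT1 replicate 3.

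Base composition moved with these differences. Across the 133 members transcript GC content correlated with the shift of replicate 3 (r = -0.35 in shfirefly and -0.38 in shSIRT1) and with the log2 fold change (r = -0.40); across the 16435 genes tested with a GC value these were -0.17, -0.13 and -0.19. The median GC content was 37.3% in the chromosome 7 run and 42.8% in the first chromosome 19 run, against 54.6% in the chromosome 8 run and 46.3% over the tested members. With an offset for GC content and length the chromosome 7 run had 4 of 5 members higher and a median of 0.81, the first chromosome 19 run 9 of 15 and 0.64, and the chromosome 8 run 3 of 5 lower and -0.37. Without both libraries numbered 3 these were 4 of 5 and 0.93, 10 of 15 and 0.81, and 3 of 5 lower and -0.36.

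Transcripts of the proteins that work with KRAB zinc fingers were mostly higher. Of 25 corepressor and partner genes, 18 rose and 2 fell by edgeR's quasi-likelihood test, 4 did not pass and ZFP57 was not tested; the median log2 fold change was 0.31. Over all genes tested 26.8% were called higher and 26.0% lower. TRIM28, the corepressor that KRAB domains bind, was at 237, 241 and 248 CPM in shfirefly and 332, 345 and 317 CPM in shSIRT1 (log2 fold change 0.45, SE 0.04, edgeR adjusted p = 2.8e-09). The HP1 gene CBX5 rose by 0.49, the SETDB1 cofactor ATF7IP by 0.59, the HUSH subunits TASOR and MPHOSPH8 by 0.66 and 0.51, the DNA methylation genes DNMT1 and UHRF1 by 0.50 and 0.74, and the remodeller SMARCAD1 by 0.82 on the log2 scale, with edgeR adjusted p of 0.00083 or less. SETDB1 was at 32.4, 29.4 and 29.6 CPM against 26.2, 27.8 and 27.4 CPM and fell (log2 fold change -0.17, edgeR adjusted p = 0.028), as did the remodeller CHD3 (-0.15, edgeR adjusted p = 0.0027). Both falls were lost with library totals alone and with the offset for GC content and length. With the offset the rises of MORC3 and ATF7IP2 were lost too (edgeR adjusted p = 0.58 and 0.11).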

How the data were processed

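RNA sequencing covered 6 libraries of SW1353 cells, 3 shfirefly and 3 shSIRT1, grouped by their titles; per the design text the 3 of a group were biological replicates. Per the labels' protocols TRI reagent was used for extraction and the TruSeq Stranded mRNA kit for the libraries. Trimmomatic, STAR, DESeq2 and the build GRCh38 are named, per the submitters' processing notes; not given in the sources used here are tool versions, the annotation release, how reads were counted and whether strand was used. The deposited table gives whole-number read counts per gene, called raw counts per the file headers; 6 other per-sample columns were not used. Columns were matched to samples by name.

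The members and the gene lists were chosen with earlier results of these data known, so no test was made over them as a set. All 60691 genes were filtered by edgeR filterByExpr (edgeR 4.0.16, R 4.3.3), which left 16591. Scaling was by TMM (factors 0.948 to 1.05). The test was edgeR's quasi-likelihood F test with robust estimation and group as the single factor. Benjamini-Hochberg adjustment ran over the 16591 genes, and a gene was called higher or lower at an adjusted p under 0.05. SE was taken as the size of the log2 fold change over the root of its F statistic. CPM use TMM-scaled library sizes, and spreads use log2(CPM + 0.1). The procedure was tested on simulated counts.

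Positions, exon lengths, transcript GC content and coding sequences came from GENCODE 29, matched by Ensembl identifier for all 140 members; the authors' gene boundaries may differ. Another annotated gene overlaps 41 members on their own strand and 78 on the opposite one, and overlapping genes may share reads. C2H2 fingers were counted as a pair of cysteines 2 to 4 residues apart, 12 residues, and a pair of histidines 3 to 5 apart. Promoter windows came from RefSeq (GRCh38.p14), matched by symbol; identity with ZNF92 was counted in global alignments (Biopython 1.88).

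Genes named by rule were the 8 largest rises and 8 largest falls among called members whose mean reached 1 CPM and whose groups do not overlap, the 5 highest per kb, the 5 with the largest spread at a mean of at least 1 CPM, the 3 with a mean of at least 5 CPM nearest to 0, and 12 with a textbook role; other members are named where a run or a motif count needs them. Alternatives were RLE and upper-quartile factors, library totals alone, DESeq2 1.42.0, other filters, no robust estimation, a replicate block, an offset for GC content and length (spline terms with 5 degrees of freedom, values known for 99.1% of tested genes), and leaving out libraries. Run counts under each alternative, the neighbours of the runs, a wider KRAB pattern and the promoter motif were added after seeing the data.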

Additional observations from a re-analysis of the deposited data

How the results depend on the processing

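With library totals alone 53 members were higher and 12 lower and the median was 0.18, while the median of all genes moved to 0.13; with upper-quartile factors the members' median was 0.00566, and DESeq2 called 17 members lower. Leaving out 1 library at a time gave 28 to 41 members higher, 20 to 29 lower and a median of 0.02 to 0.09. Of the 69 called members 31 lost their call in at least 1 of these fits, and 25 higher and 11 lower members kept theirs under every alternative. Without both libraries numbered 3, 42 members were higher and 23 lower, and 34 and 23 of these were the same genes as in the full fit. Of the named members, 6 that were not called changed sign: ZNF10 to 0.10 with library totals alone, 0.032 with the GC content and length offset and 0.034 with that offset and the block; ZNF71 to -0.042 with upper-quartile factors and -0.001 with the filter of 1 CPM; ZNF143 to -0.010 with upper-quartile factors; ZNF184 to -0.035 with upper-quartile factors and -0.173 with the offset; and ZNF217 to -0.004 with RLE, -0.048 with upper-quartile factors, -0.007 with the filter of 1 CPM, -0.074 with the offset and -0.075 with the offset and the block. In fits that left out 1 library, ZNF10 ran from -0.118 to 0.067, ZNF71 from -0.034 to 0.035, ZNF143 from -0.002 to 0.093, ZNF184 from -0.035 to 0.047, ZNF217 from -0.021 to 0.010 and ZNF292 from -0.089 to 0.622. The cause was not tested.

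The replicate numbers share no stated source. Over all genes the deviations of same-numbered libraries correlated at -0.01, -0.07 and 0.13, and only the libraries numbered 3 correlated best with their own number, so the numbers were not taken to pair the samples. Over the members these correlations were 0.08, 0.21 and 0.54, and the libraries numbered 2 and 3 correlated best with their own number. With the replicate number as a block 44 members were higher and 35 lower, with a median of 0.06, and all 36 and 33 called without it were among them. ZNF107 and ZNF91 passed with the block (edgeR adjusted p = 7.3e-09 and 0.00015) and with the block and the offset (4.3e-06 and 0.0087). With the block and the offset together 43 were higher and 30 lower. Where members lie under 1 CPM, depth limits what can be called.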
